A study of Oryza sativa Indica Group with 2 samples.

Results

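The sucrose synthase family of rice was taken as 7 loci, SUS1 to SUS7, which were chosen by their locus identifiers and make up 7 of the 55337 loci in the deposited expression table. Their 21 transcript models were all found in the table. RNA-Seq was carried out on poly(A) RNA of young panicles, with 1 library for the *Osam1* mutant and 1 for the wild type. Both genotypes belong to the *indica* variety Zhongxian 3037, were grown in a paddy field and were collected as spikelets whose meiocytes were in prophase I, with spikelets of several panicles pooled into each RNA sample. The mutant arose after γ-ray treatment and carries a small deletion in *OsAM1* that introduces a premature stop codon, and its meiosis halts in leptotene, whereas the wild type was untreated Zhongxian 3037.

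Sucrose synthase splits sucrose with UDP into UDP-glucose and fructose, and the reaction can run in either direction. It is known as a main route by which sink tissues, such as growing panicles and filling grains, take up imported sucrose into metabolism. The UDP-glucose serves the synthesis of cellulose and callose, and in starch-storing tissue it also feeds the path to ADP-glucose. In rice, SUS1 is known from elongating tissues and SUS3 from the filling endosperm.

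The values are FPKM, fragments scaled to the length of the transcript model and to the mapped fragments of the library, so that levels can be set side by side between loci. A ratio between the libraries is given on the scale log2(FPKM + 1) with the *Osam1*-labelled library over the wild-type-labelled library, and a locus counted as apart at an absolute log2 ratio of at least 1, which is 2-fold on that scale. With 1 library per genotype, no difference has a replicate check, no test was possible and no p-value is given. The labels of the libraries are in doubt. For all 13 loci with 1 transcript model that the article lists with a direction of change, the columns as labelled ran in the opposite direction. Of the 16 such loci with several transcript models, the summed values ran opposite at 10 and as labelled at 6. None of these 6 was apart by its summed values, and most of the 10 were not apart either. The deposited column assigned to the *Osam1* mutant carries AmI-AA in its header, and the column assigned to the wild type carries amI-aa. The sources used here do not say what these headers stand for. Both libraries are hence named by their label, and each direction below would be turned if the labels were exchanged. None of the sources used here pairs *OsAM1* with a locus, so the mutated gene was not used to check them.

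The table had values above 0 at 22088 loci in the *Osam1*-labelled library and at 23756 loci in the wild-type-labelled library. It holds no read counts, so the reads behind a value are unknown and no counting interval can be given. Low values still showed steps, seen at 4307 loci with 1 transcript model. These were chosen for values between 1 and 10 FPKM in the *Osam1*-labelled library and above 0 in the other, a choice that can shape the ratio. Their most common ratio was 2.37. If that ratio stands for equal reads, it is the FPKM worth of 1 read in the *Osam1*-labelled library relative to 1 read in the other. On that reading the *Osam1*-labelled library had fewer mapped reads, whereas the article gives more mapped reads for the mutant. The mapped reads in the article differ by less than 2.37-fold, so the sizes differ under either assignment of the labels. The article also counts more expressed genes in the mutant, by its own cutoff, while fewer loci were above 0 here under that label. *MEL1* (Os03g58600), known from germ cells, had 22.1 FPKM in the *Osam1*-labelled library and 19.6 FPKM in the wild-type-labelled library. *MIL1* (Os07g05630), known from early anthers, had 7.96 FPKM and 4.48 FPKM in the same order. A list of 3 floral organ loci summed to 404.1 FPKM in the *Osam1*-labelled library and 247.8 FPKM in the wild-type-labelled library, all 3 above 0 in both. Their log2 ratios ran from -0.10 to 0.97, so the loci did not all differ in the same direction. A list of green leaf loci, of which 3 of 4 were analysed and all 3 were above 0 in both libraries, summed to 266.9 FPKM and 148.4 FPKM. Their log2 ratios ran from 0.48 to 3.26. The 4 loci of an endosperm list summed to 10.8 FPKM and 10.4 FPKM, and 2 of them were listed at 0 in the *Osam1*-labelled library. Most of both sums came from 1 locus, with 9.68 FPKM and 7.78 FPKM in the same order. The log2 ratios of the list ran from -1.12 to 0.28, with a median of -0.18. The part of such tissues in the results below was not tested.

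SUS1 and SUS2 held most of the signal of the family in both libraries. Together they made up 93.3% of the family's 764.5 FPKM in the *Osam1*-labelled library and 85.0% of its 455.2 FPKM in the wild-type-labelled library. SUS5, SUS6 and SUS7 were at intermediate levels, SUS4 was at an intermediate level only in the wild-type-labelled library, and SUS3 was close to 0 in both. With transcript models summed, 3 members were higher in the *Osam1*-labelled library and 4 were lower, and 2 of the 7 were at least 2-fold apart, SUS3 and SUS4. Over all loci, 20.8% were at least 2-fold apart, and over the loci averaging at least 1 FPKM, 44.5% were. Of the 6 members above 0 in both libraries, only SUS4 was apart, beside 30.9% of all such loci. The median log2 ratio was -0.29 over the 7 members, 0 over all loci and 0.09 over the loci above 0 in both libraries.

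**Figure D1:**
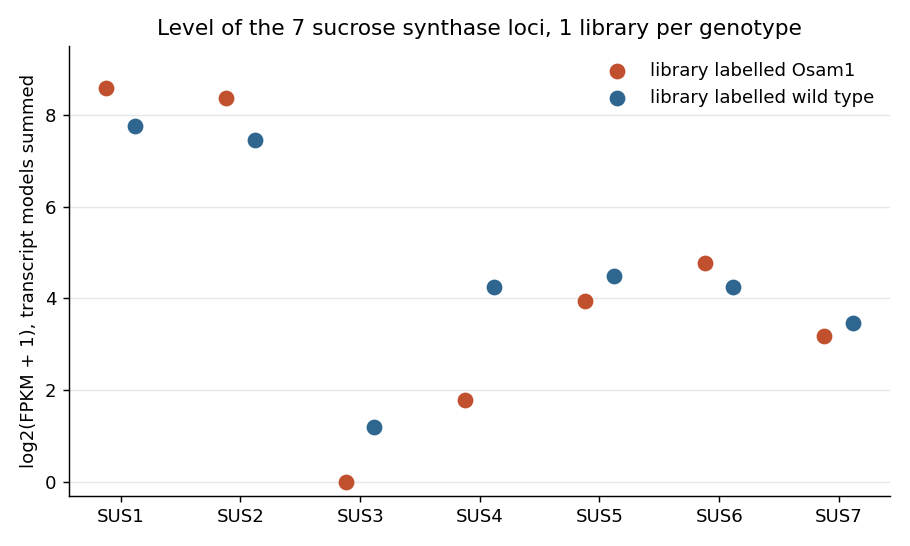
Level of each sucrose synthase locus, as log2(FPKM + 1) with transcript models summed (y axis), in the *Osam1*-labelled library (orange) and the wild-type-labelled library (blue), 1 point per library. SUS1 and SUS2 stand above the other members in both libraries, and the points lie farthest from each other at SUS4, with 2.47 FPKM and 17.9 FPKM.

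SUS1 (LOC_Os03g28330, chromosome 3) was the first of the family by its summed level. Its FPKM was 385.4 in the *Osam1*-labelled library and 213.6 in the wild-type-labelled library, a log2 ratio of 0.85. These levels lay above 98.3% and 96.7% of the loci expressed in the respective library. The sums, however, count the same value several times. SUS1 has 5 transcript models, of which models 1 to 4 each had 96.35 FPKM in the *Osam1*-labelled library and 53.41 FPKM in the wild-type-labelled library, while model 5 was listed at 0 in both. A single model of SUS1 thus stood at 1.80-fold in the *Osam1*-labelled library, as did the sum. Among the 5960 loci with several transcript models and a value above 0, 25.2% had at least 2 models with identical values in both libraries and 1.81% had at least 4. RefSeq (assembly ASM3414082v1, matched by gene symbol) lists 3 transcripts for SUS1.

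SUS2 (LOC_Os06g09450, chromosome 6) had summed levels of 327.9 FPKM in the *Osam1*-labelled library and 173.1 FPKM in the wild-type-labelled library, a log2 ratio of 0.92. Beneath these sums, the libraries differed in which of the 8 transcript models carried the signal. Model 5 had 0.05 FPKM in the *Osam1*-labelled library and 167.1 FPKM in the wild-type-labelled library, where it made up 96.5% of the locus. Model 2 had 162.5 FPKM in the *Osam1*-labelled library and 2.17 FPKM in the wild-type-labelled library. The highest model of each library was therefore at nearly the same level, but it was not the same model.

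The remaining signal of SUS2 in the *Osam1*-labelled library came from models 1, 6 and 7. Model 1 had 63.37 FPKM in the *Osam1*-labelled library and was listed at 0 in the wild-type-labelled library. Model 6 had 63.37 FPKM in the *Osam1*-labelled library and 2.73 FPKM in the wild-type-labelled library. Model 7 had 38.6 FPKM and 0.07 FPKM in the same order. Models 3 and 4 were listed at 0 in the *Osam1*-labelled library and had 0.07 FPKM and 0.98 FPKM in the wild-type-labelled library, and model 8 was listed at 0 in both. All models other than model 5 summed to 327.8 FPKM in the *Osam1*-labelled library and 6.02 FPKM in the wild-type-labelled library. Models 1 and 6 had the same value in the *Osam1*-labelled library, so the sums there may count the same reads more than once. Counting identical models once, described below, needed identity in both libraries and left SUS2 as it was.

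Opposed transcript models were not particular to SUS2. Of the 5960 loci with several models and a value above 0, 19.9% had models at least 2-fold apart in both directions, and of the 5341 such loci with values in both libraries, 20.9% had a highest model that differed between the libraries. Among the 789 loci with a model of at least 100 FPKM in either library, 4.06% had models of that level at least 2-fold apart in both directions, and SUS2 was one of these 32 loci. RefSeq lists 4 transcripts for SUS2, and the deposited table does not say how reads shared by its 8 models were divided. The article states that with its method reads across exon junctions could not be matched to transcripts. Whether this also holds for the deposited values of single models is not stated.

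**Figure D2:**
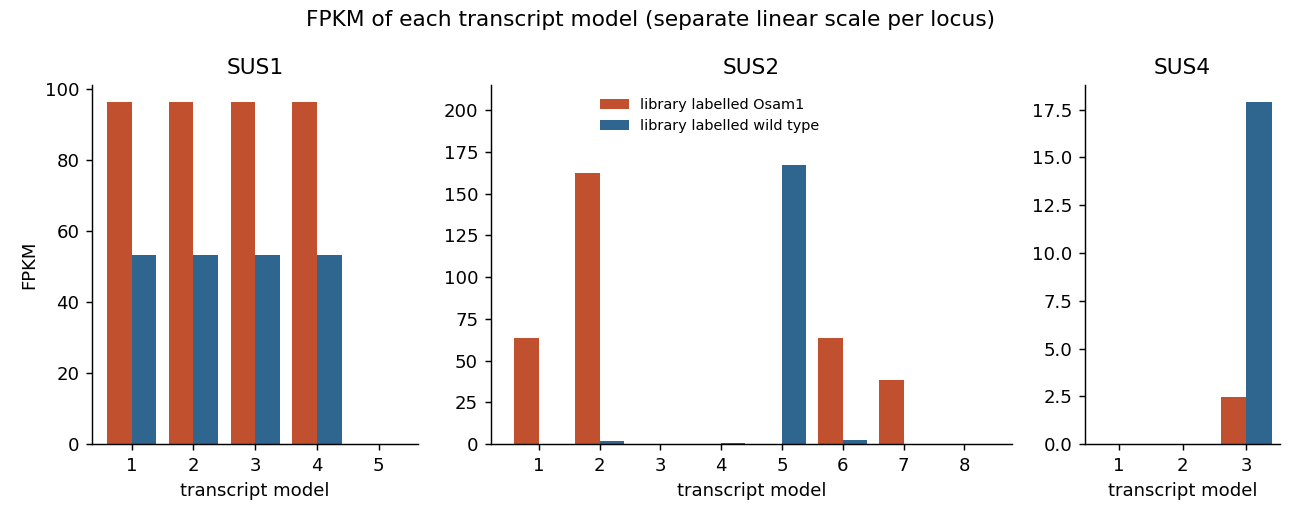
FPKM of each transcript model (y axis, linear, with its own scale in each panel) of SUS1, SUS2 and SUS4 in the *Osam1*-labelled library (orange) and the wild-type-labelled library (blue). In SUS1, models 1 to 4 have bars of the same height within a library, in SUS2 the tallest bar is model 2 in the *Osam1*-labelled library and model 5 in the wild-type-labelled library, and SUS4 has bars at model 3 alone.

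The order of SUS1 and SUS2 turned on how transcript models were combined. With the models summed, SUS1 was above SUS2 in both libraries and held 50.4% of the family in the *Osam1*-labelled library and 46.9% in the wild-type-labelled library. With the highest model of each locus, SUS2 was above SUS1 in both, at 162.5 FPKM against 96.35 FPKM in the *Osam1*-labelled library and at 167.1 FPKM against 53.41 FPKM in the wild-type-labelled library. SUS1 then held 31.1% and 18.5% of the family. With highest models, the log2 ratio of SUS2 was -0.04 in place of 0.92. That of SUS1 was 0.84 and could hardly move, since its models with a signal are identical. For the family as a whole, the log2 ratio was 0.75 with models summed and 0.10 with highest models, where the 7 loci added up to 310.1 FPKM in the *Osam1*-labelled library and 288.4 FPKM in the wild-type-labelled library.

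Neither SUS1 nor SUS2 was at least 2-fold apart as a summed locus. Of the 1988 loci averaging at least 100 FPKM, 26.9% had a log2 ratio at least as far from 0 as that of SUS1 and 23.9% one at least as far as that of SUS2, and 21.6% were at least 2-fold apart.

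SUS4 (LOC_Os03g22120, chromosome 3) had the ratio farthest from 0 in the family when models were summed. It had 2.47 FPKM in the *Osam1*-labelled library and 17.9 FPKM in the wild-type-labelled library, a 7.24-fold higher value in the latter and a log2 ratio of -2.44. The whole signal came from model 3 of its 3 transcript models, since models 1 and 2 were listed at 0 in both libraries, so that the value of the locus was not repeated across models. SUS4 was level with SUS6 in the wild-type-labelled library, at 17.89 FPKM and 17.95 FPKM, and was below SUS5, SUS6 and SUS7 in the *Osam1*-labelled library. Of the 5936 loci averaging 10 to below 30 FPKM, 36.4% were at least 2-fold apart and 8.95% had a log2 ratio at least as far from 0 as that of SUS4.

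SUS3 (LOC_Os07g42490, chromosome 7) was the lowest member in both libraries. It was listed at 0 in the *Osam1*-labelled library, and in the wild-type-labelled library its 2 transcript models had 0.64 FPKM each. The sum of 1.28 FPKM gave a log2 ratio of -1.19, while 1 model alone gave -0.71, so that with 1 FPKM added the locus passed 2-fold only when the same value was added to itself. No fold is given against the value listed at 0. The summed value lay above 15.4% of the loci expressed in the wild-type-labelled library.

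SUS5, SUS6 and SUS7 have 1 transcript model each, so their values did not depend on how models were combined, and none was at least 2-fold apart. SUS5 (LOC_Os04g24430, chromosome 4) had 14.4 FPKM in the *Osam1*-labelled library and 21.3 FPKM in the wild-type-labelled library, a log2 ratio of -0.53. SUS6 (LOC_Os02g58480, chromosome 2) ran the other way, with 26.3 FPKM and 17.95 FPKM in the same order and a log2 ratio of 0.53. SUS7 (LOC_Os04g17650, chromosome 4) had 8.08 FPKM and 10.1 FPKM, a log2 ratio of -0.29, the smallest log2 ratio by size in the family with models summed.

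Differences of this size were common among loci of like level. Of the loci averaging 10 to below 30 FPKM, 60.7% had a log2 ratio at least as far from 0 as that of SUS5 and 61.0% one at least as far as that of SUS6. For SUS7, the share was 86.6% of the 5012 loci averaging 3 to below 10 FPKM. The sum over SUS5, SUS6 and SUS7 was 48.8 FPKM in the *Osam1*-labelled library and 49.3 FPKM in the wild-type-labelled library, so the 3 members differed in opposite directions around a nearly equal total.

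**Figure D3:**
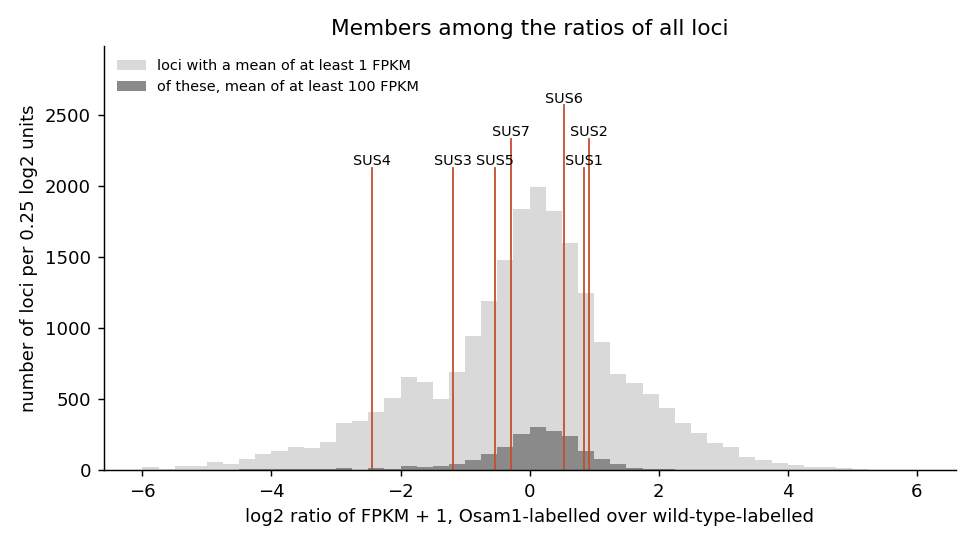
Number of loci (y axis) by log2 ratio of FPKM + 1 between the *Osam1*-labelled library and the wild-type-labelled library (x axis, bins of 0.25 from -6 to 6), for loci averaging at least 1 FPKM (light grey) and of at least 100 FPKM (dark grey), with the summed ratio of each member as an orange line. SUS4 lies at -2.44 on the left side, SUS1 and SUS2 lie at 0.85 and 0.92, and SUS3, whose mean of 0.64 FPKM is below the minimum of the bars, is marked at -1.19.

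The order of the members differed between the libraries only below SUS1 and SUS2. In the *Osam1*-labelled library, the order from high to low was SUS6, SUS5, SUS7, SUS4 and SUS3, and in the wild-type-labelled library it was SUS5, SUS6, SUS4, SUS7 and SUS3. With 1 library per genotype, no pair of neighbours in either order can be said to differ beyond the spread between samples.

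**Figure D4:**
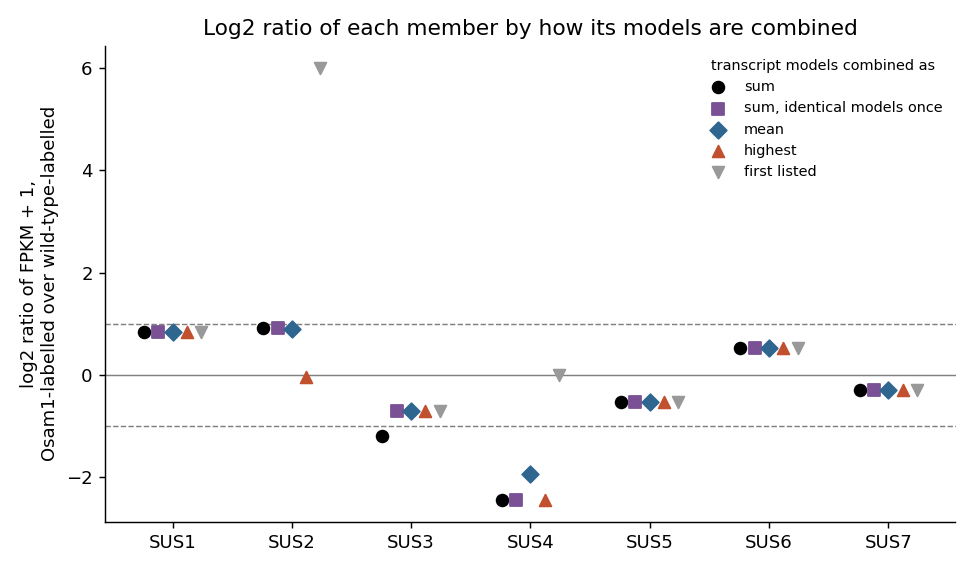
Log2 ratio of FPKM + 1 (y axis) of each member (x axis) with its transcript models combined in 5 ways, given by symbol, with dashed lines at 2-fold. The symbols fall together for SUS1, whose models above 0 are identical, and for SUS5, SUS6 and SUS7, which have a single model each. For SUS2 the symbols spread from -0.04 to 6.01. For SUS4 they spread from -2.44 to 0, where the first listed model is listed at 0 in both libraries.

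Sucrose synthase works beside other enzymes and carriers of sucrose. A list of 27 such loci, drawn up from general knowledge since neither the table nor the reference annotates the identifiers, had 26 loci in the analysed table, of which 21 had a value above 0 in at least 1 library. At least 2-fold apart were 6 of the 26, or 23.1%, beside the 20.8% of all loci. Of these, 2 were higher and 4 were lower in the *Osam1*-labelled library, where 9.57% of all loci were higher by that fold and 11.2% lower. The shares over all loci count loci listed at 0 in both libraries, which cannot be apart. Of the loci above 0 in both libraries, 30.9% were apart, and of those averaging at least 1 FPKM, 44.5%. The median log2 ratio of the list was 0, as it was over all loci, where both include loci listed at 0 in both libraries.

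On the synthesis side of the list, 1 of 8 loci, or 12.5%, was at least 2-fold apart. All 8 were above 0 in both libraries, and of all such loci 30.9% were apart, beside 20.8% of all loci. Of the sucrose phosphate synthases, which make the phosphorylated precursor of sucrose, 0 of 5 were apart, with log2 ratios from -0.98 to 0.95. Of the sucrose phosphate phosphatases, which release sucrose from it, 1 of 3 was lower in the *Osam1*-labelled library, at -1.22. Sucrose transporters, which carry sucrose across membranes, held 3 of the 6 loci past 2-fold. Of the 4 transporter loci analysed, 2 were lower in the *Osam1*-labelled library, at -1.96 and -2.60, 1 was higher at 2.97 and listed at 0 in the wild-type-labelled library, and 1 was listed at 0 in both.

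On the cleavage side, invertases split sucrose into glucose and fructose without making UDP-glucose. Of the 8 cell wall invertase loci, 4 were listed at 0 in both libraries and 1 was lower in the *Osam1*-labelled library, at -1.08. Their sum was 79.3 FPKM in the *Osam1*-labelled library and 63.5 FPKM in the wild-type-labelled library. Of the 2 vacuolar invertase loci, 1 had 153.7 FPKM in the *Osam1*-labelled library and 100.9 FPKM in the wild-type-labelled library, a log2 ratio of 0.60, which is not 2-fold. The other had 1.71 FPKM in the *Osam1*-labelled library and was listed at 0 in the wild-type-labelled library, a log2 ratio of 1.44. Beside these counts, 20.8% of all loci were at least 2-fold apart, as were 30.9% of those above 0 in both libraries.

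Of the loci that act on the products of sucrose synthase, none of the 4 listed was at least 2-fold apart. All 4 were above 0 in both libraries, and of all such loci 30.9% were apart. The 2 fructokinases, which phosphorylate fructose, summed to 612.3 FPKM in the *Osam1*-labelled library and 419.8 FPKM in the wild-type-labelled library, with log2 ratios of -0.60 and 0.72. The 2 UDP-glucose pyrophosphorylases, which interconvert UDP-glucose and glucose 1-phosphate, differed in level. The higher had 202.8 FPKM in the *Osam1*-labelled library and 189.2 FPKM in the wild-type-labelled library, a log2 ratio of 0.10, and the lower had 7.42 FPKM and 10.2 FPKM, a log2 ratio of -0.41.

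**Figure D5:**
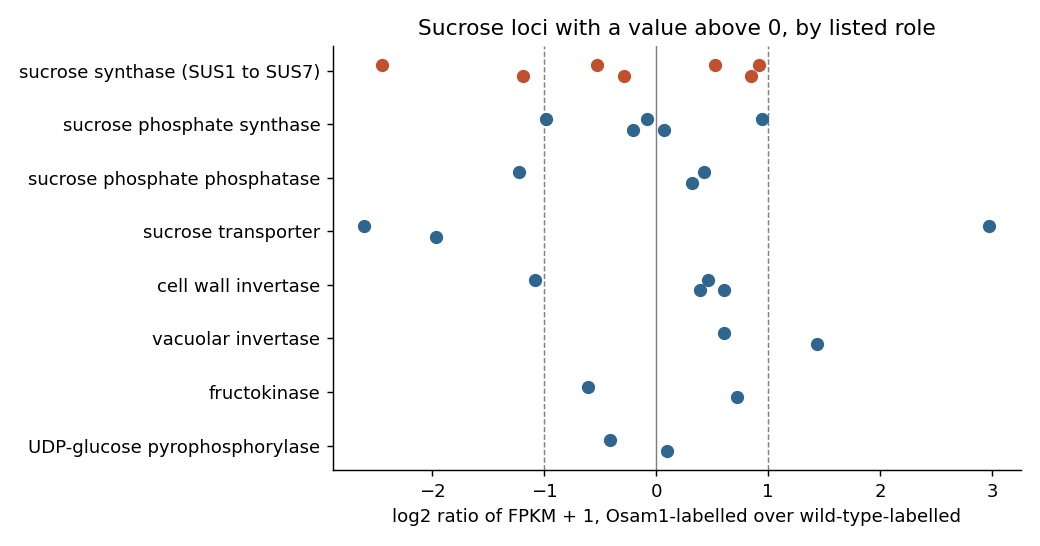
Log2 ratio of FPKM + 1 between the *Osam1*-labelled library and the wild-type-labelled library (x axis) of SUS1 to SUS7 (orange) and of the 21 listed sucrose loci with a value above 0 (blue), by role, 1 point per locus, with dashed lines at 2-fold. The sucrose transporters spread from -2.60 to 2.97, and all points of the sucrose phosphate synthases, fructokinases and UDP-glucose pyrophosphorylases lie within the dashed lines.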

How the data were processed

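The authors removed adaptor and low-quality reads, aligned the rest to the Rice Genome Annotation Project genome with SOAPaligner/soap2 and quantified expression with ERANGE. The deposited table gives 1 FPKM value for each transcript model and library, with 2 decimals, and the Methods name the unit RPKM. The annotation release is not given in the sources used here. The library preparation did not keep strand, so overlapping antisense transcripts could not be told apart.

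The table has 65535 rows and ends within chromosome 12, and loci beyond its last row were not analysed here. Values of all transcript models were summed by locus, and log2 ratios were calculated after adding 1 FPKM. The calculation was tested on simulated data. Members and lists were chosen with earlier results of these data known. All 7 members were named, as were the markers *MEL1* and *MIL1*, which the article pairs with loci, while the other listed loci, which no source used here annotates, were described by counts and values without identifiers. Alternatives were 2 other added values, 2 scalings, 3 other ways to combine models and 2 filters. Protein and promoter sequences were not used here. Python 3.11.15, numpy 2.4.6, pandas 2.3.3 and matplotlib 3.10.9 were used.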

Additional observations from a re-analysis of the deposited data

How the results depend on the processing

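Of the 56 log2 ratios of single members under another setting, 47 stayed on the same side of 2-fold and within 1.5-fold of the value with models summed. The other 9 belong to SUS2, SUS3 and SUS4. Some of the 47 could not have moved: SUS5, SUS6 and SUS7 have 1 transcript model each, so combining models in another way leaves them unchanged. The same holds for SUS4, with 1 model above 0, under highest models and under identical models counted once. SUS1 could hardly move under any way of combining models, since its models above 0 are identical. The number of members at least 2-fold apart was 2 and became 1 in each of these settings: SUS2 with first listed models, and SUS4 with highest models, with the mean of the models, with a mean of at least 1 FPKM, with values above 0 in both libraries, and with identical models counted once, the last chosen after seeing the data. The family log2 ratio of 0.75 became 1.01 with first listed models and 0.10 with highest models. With first listed models, SUS2 had 6.01 and SUS4 had 0, since that model of SUS4 is listed at 0 in both libraries. SUS3 had -0.71 in each of the 4 other ways to combine its models. It had -3.79 with 0.1 FPKM added and -7.01 with 0.01 FPKM added, which follows from its value listed at 0. The 2 scalings, which divide by a median ratio of 1.05 or by a ratio of 75th percentiles of 1.04, moved no member across 2-fold. Of all 55337 loci, 11521 or 20.8% were at least 2-fold apart, and of the 18346 loci above 0 in both libraries, 5669 or 30.9% were. The number of listed sucrose loci at least 2-fold apart stayed within 1.5 times its value of 6 under every alternative tried. No paired analysis was possible because each genotype has 1 library and no test was made. The reads behind the low values of SUS3 and SUS4 are unknown.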
